A study of Homo sapiens with 12 samples.

Results

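The 2 chronic myeloid leukemia lines of the study, KBM7 and K562, were compared at baseline, that is with the control siRNA only. The comparison covered the 23238 genes that the count tables of both lines list, joined by Ensembl gene identifier, of 31316 genes listed for either line. Of these, 15375 passed a filter on low counts and were tested. The study depleted USP15, a deubiquitinase, by RNA interference in both lines, and the libraries used here are its siCtrl arms: 2 KBM7 and 4 K562 libraries of RNA taken 72 h after transfection of a pool of non-targeting siRNAs. Both lines come from CML in blast crisis and were given here as single lines with no other genetic change. KBM7 was grown in IMDM and K562 in RPMI 1640, both with fetal calf serum.

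Each line was sequenced in a run of its own and counted into a table of its own. Line, medium, run and table therefore cannot be told apart in any difference reported here. No library came from untransfected cells, so that the response of a line to siRNA transfection cannot be told apart from its untreated state either. The labels do not say that the replicates were separate cultures, and p-values measure only the spread between these libraries. The total count ran from 23020401 to 29441118 per library, and the joined genes held 99.4% to 99.9% of it. K562 replicates 1 and 2 formed one set and replicates 3 and 4 another. The 2 sets lay apart on the second principal component (3.70% of the variance), whereas the first (94.7%) separated the lines. A dispersion index of library pairs, 1 for counting noise alone, was 1.75 and 2.37 within the K562 sets and 47.5 to 54.5 between them. The tests below nevertheless count the 4 K562 libraries as separate units. Values are CPM, the count of a gene scaled to the library's sum over the genes tested, after TMM scaling. A gene was called when the edgeR quasi-likelihood test gave an adjusted p under 0.05 and the log2 difference, KBM7 minus K562, was at least 1 in size.

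K562 is known as a line with erythroid and megakaryocytic features that makes embryonic and fetal hemoglobin, and KBM7 as a near-haploid myeloid line. Red cell development runs through GATA1 and KLF1, which switch on globin, membrane and heme genes. Granulocytes, monocytes and mast cells arise from progenitors marked by CD34 and KIT. PU.1 (SPI1) and CEBPA control the granulocyte and monocyte fates. BCR-ABL1, the fusion kinase of CML, signals through CRKL, GRB2 and STAT5 in both lines.

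The 4 genes taken as markers of the lines lay apart in every library. MPO, the peroxidase of neutrophil granules, had 5.60 and 5.84 CPM in the KBM7 libraries and 0.781, 0.556, 0.122 and 0.0795 CPM in K562 replicates 1 to 4 (log2 difference 3.9 ± 0.59 SE, adjusted p = 0.00089). HBG2, a fetal globin, had 12.7 and 17.7 CPM in KBM7 and 1401, 1371, 1859 and 1741 CPM in K562 (-6.71 ± 0.26, adjusted p = 1.3e-06). The gene GATA1, for the master regulator of red cells and megakaryocytes, had 30.2 and 31.2 CPM in KBM7 and 252, 250, 224 and 235 CPM in K562 (-2.97 ± 0.08, adjusted p = 3.7e-07). ABL1, the kinase gene of the fusion, had 179 and 168 CPM in KBM7 and 355, 360, 333 and 355 CPM in K562 (-1.02 ± 0.07, adjusted p = 1.5e-05). The call of ABL1 held in 12 of 16 alternative fits and fell just short of the size in the other 4, among them the fit without KBM7 replicate 2 (-0.97). The lines did not overlap at any of the 4 genes. By the exact permutation test over libraries, 2-sided, each had p = 0.0667, the smallest that 2 libraries against 4 allow, so that this test could not reach 0.05. MPO was low in both lines, and its level in K562 differed between the sets, whereas GATA1 RNA was present in every KBM7 library.

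In all, 3621 genes were called higher in KBM7 (23.6% of those tested) and 2748 higher in K562 (17.9%), and 10948 (71.2%) had an adjusted p under 0.05 at any size. The median log2 difference over all genes tested was -0.01. A list of genes is therefore read below against these shares, since a call was common in this comparison.

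**Figure D1:**
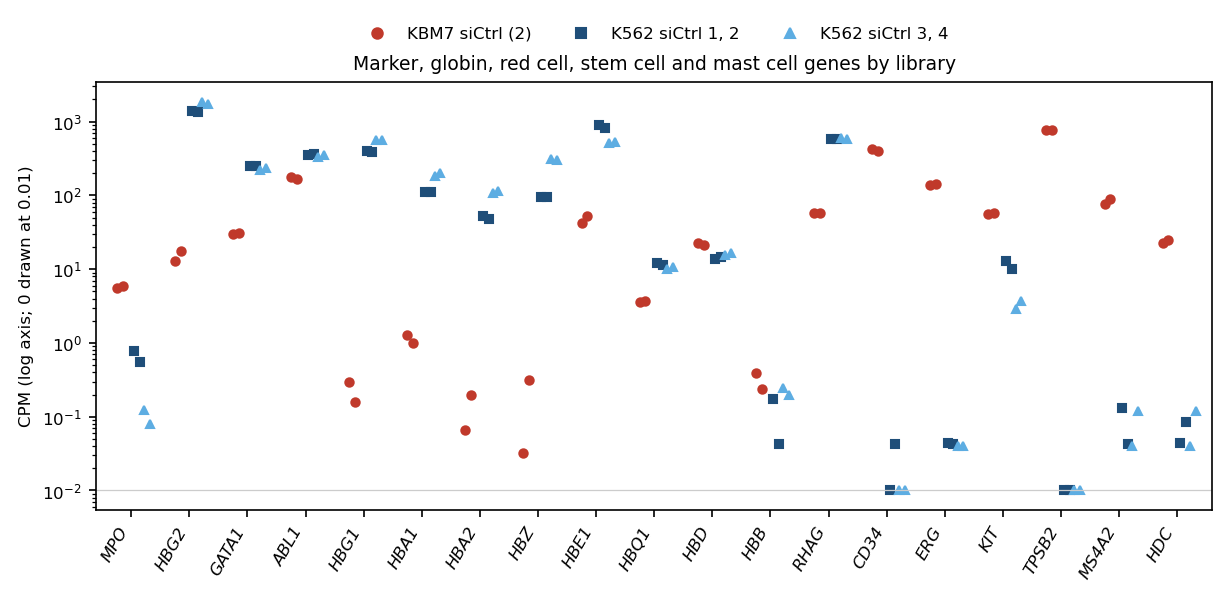
CPM of 19 genes on a log axis, with a point for each library (red circles, KBM7; dark squares, K562 replicates 1 and 2; light triangles, K562 replicates 3 and 4) and 0 counts drawn on the grey line. Globin and red cell genes lie higher in K562 except for HBD and HBB, stem cell and mast cell genes lie higher in KBM7, and MPO, KIT and HBZ differ between the K562 sets.

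Globin RNA was abundant in K562 and scarce in KBM7. Of the 10 globin genes listed, 8 were tested, 7 were higher in K562 and none higher in KBM7, with a median log2 difference of -6.87. The embryonic HBE1 had 41.9 and 52.1 CPM in KBM7 and 893, 824, 514 and 536 CPM in K562 (-3.88 ± 0.32, adjusted p = 4.4e-05). HBZ, the embryonic alpha-like globin, had 0.0325 and 0.318 CPM in KBM7 and 94.7, 96.2, 311 and 301 CPM in K562 (-10.23 ± 1.18, adjusted p = 0.00024). Its level in the second K562 set was above that in the first, and the order was the reverse for HBE1. HBA1 reached 1.30 and 0.993 CPM in KBM7 and 112, 110, 186 and 200 CPM in K562 (-7.03 ± 0.44, adjusted p = 1.3e-05). HBG1 and HBG2, and HBA1 and HBA2, are near-identical copies, and the split of reads within each pair is uncertain.

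The adult-type beta-like globins, HBD and HBB, were not called higher in K562. HBD, the delta globin of adult red cells, had 23 and 21.6 CPM in KBM7 and 13.9, 14.5, 15.5 and 16.4 CPM in K562, a log2 difference of 0.56 ± 0.10 that passed the adjusted p (0.0024) but not the size. In the siUSP15 libraries the difference of HBD was -1.22. HBB, adult beta globin, was not tested: it had 18 counts over the KBM7 libraries and 16 over the K562 libraries. Per exon length, as CPM per kilobase of exon (RPKM), HBE1 had 48.9, HBD 19.3 and HBG2 18.1 RPKM in KBM7. In K562 the same genes had 720, 13.1 and 1894 RPKM. The RPKM of HBD and HBG2 lay close in KBM7, and their order was not the same in both KBM7 libraries. The listed spans of HBG2 and HBE1 also cover neighboring genes, which makes their lengths, and so their RPKM, less sure.

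Genes of the red cell membrane and surface were mostly higher in K562: 22 of 30 were (73.3%, beside 17.9% of all genes tested). Of the others, 5 were higher in KBM7 and 3 were not called, and the median was -2.96. The log2 differences of the glycophorin genes GYPB and GYPE were -8.41 and -8.93, and glycophorin genes of this family share long stretches, so that the split of reads between them is uncertain. KEL, the Kell antigen, had 1.66 and 1.59 CPM in KBM7 and 136 to 153 CPM in K562 (-6.46), and GYPC 4.29 and 4.49 CPM against 142 to 147 CPM (-5.05). Not all of this group was absent from KBM7. RHAG, the partner of the Rh antigens, had 57.4 and 58.7 CPM in KBM7 against 575 to 596 CPM, ANK1, the ankyrin that anchors spectrin, 27.2 and 31.4 CPM against 404 to 481 CPM, and EPOR, the erythropoietin receptor, 4.36 and 4.89 CPM against 24.1 to 38 CPM.

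Higher in KBM7 were 5 genes of this list, a share (16.7%) below that of all genes tested (23.6%). ITGA4, the alpha 4 integrin of progenitors and lymphocytes, had 252 and 250 CPM in KBM7 and 0.0427 to 0.119 CPM in K562 (11.48 ± 0.13, adjusted p = 3.9e-08). CD44, the hyaluronan receptor, had 357 and 350 CPM against 3.16 to 7.94 CPM (5.91). BCAM, the Lutheran antigen, followed at a log2 difference of 6.04, CD47, which blocks uptake by phagocytes, at 1.92 and stomatin (STOM) at 1.36. The transferrin receptor TFRC, with 838 and 818 CPM in KBM7 and 1247 to 1866 CPM in K562, was not called (-0.90, adjusted p = 0.0064), nor was EPB41 (-0.07).

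Of 24 genes of heme synthesis and iron, 23 were tested (median -1.19). Higher in K562 were 13 (56.5%, beside 17.9% of all genes tested) and higher in KBM7 3 (13.0%, beside 23.6%). Among the enzymes of the pathway, ALAS1 and CPOX were called higher in KBM7. ALAS2, the erythroid first enzyme, had 15.9 and 18.1 CPM in KBM7 and 56.2 to 67.0 CPM in K562 (-1.84 ± 0.11), while ALAS1, the form of other tissues, had 92.6 and 92.1 CPM in KBM7 and 40.9 to 50.5 CPM in K562 (1.01 ± 0.09, adjusted p = 6.4e-05). The difference of ALAS1 fell short of the size without K562 replicate 1 (0.96), against the second K562 set alone (0.97), with K562 libraries summed by set (0.97) and in the siUSP15 libraries (0.85). Of the enzymes that follow, UROD (-2.50), PPOX (-1.43) and FECH (-1.14) were higher in K562, CPOX (1.19) was higher in KBM7, and ALAD (0.74) and UROS (0.05) were not called. FECH was at -0.80 and not called against the first K562 set alone. AHSP, the chaperone of free alpha globin, had 0 counts in KBM7 and 5.47 to 13.2 CPM in K562, at least 173-fold higher when KBM7 is taken at 3 counts over the group. The iron exporter SLC40A1 and the receptor TFR2 were higher in K562 as well (-3.03 and -3.31). HMOX1, the enzyme that breaks heme down, was listed for KBM7 only, at 51.0 ± 2.49 CPM (SD, n = 2).

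Among 15 tested regulators of red cells and megakaryocytes, 4 were higher in K562 (26.7%, beside 17.9% of all genes tested). Higher in KBM7 was 1 (6.7%, beside 23.6%), and 10 were not called (median -0.55). KLF1, which drives adult red cell genes, had 1.14 and 1.43 CPM in KBM7 and 103, 104, 120 and 120 CPM in K562 (-6.45 ± 0.16, adjusted p = 2.5e-07). KLF3 and NFE2 were higher in K562 at -1.86 and -1.29, NFE2 at -0.90 and not called against the second K562 set alone. TAL1, which works with GATA1 in one complex, had 222 and 231 CPM in KBM7 and 231 to 253 CPM in K562 (-0.08, adjusted p = 0.28), and GFI1B (-0.04) and LYL1 (0.07) overlapped between the lines too. LMO2 and LDB1, the bridges of that complex, were not called at -0.53 and -0.86. GATA2, the GATA factor of progenitors and mast cells, had 283 and 294 CPM in KBM7 and 272, 267, 167 and 171 CPM in K562 (0.39, adjusted p = 0.16). Per exon length, GATA2 had 58.7 RPKM and GATA1 19.7 RPKM in KBM7, against 44.6 and 155 RPKM in K562. RUNX1 was higher in KBM7, with 267 and 267 CPM against 63.0, 62.3, 105 and 111 CPM (1.65 ± 0.26, adjusted p = 0.0010), and FLI1, a megakaryocyte and stem cell factor, was listed for KBM7 only, at 142 ± 1.28 CPM (SD, n = 2).

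**Figure D2:**
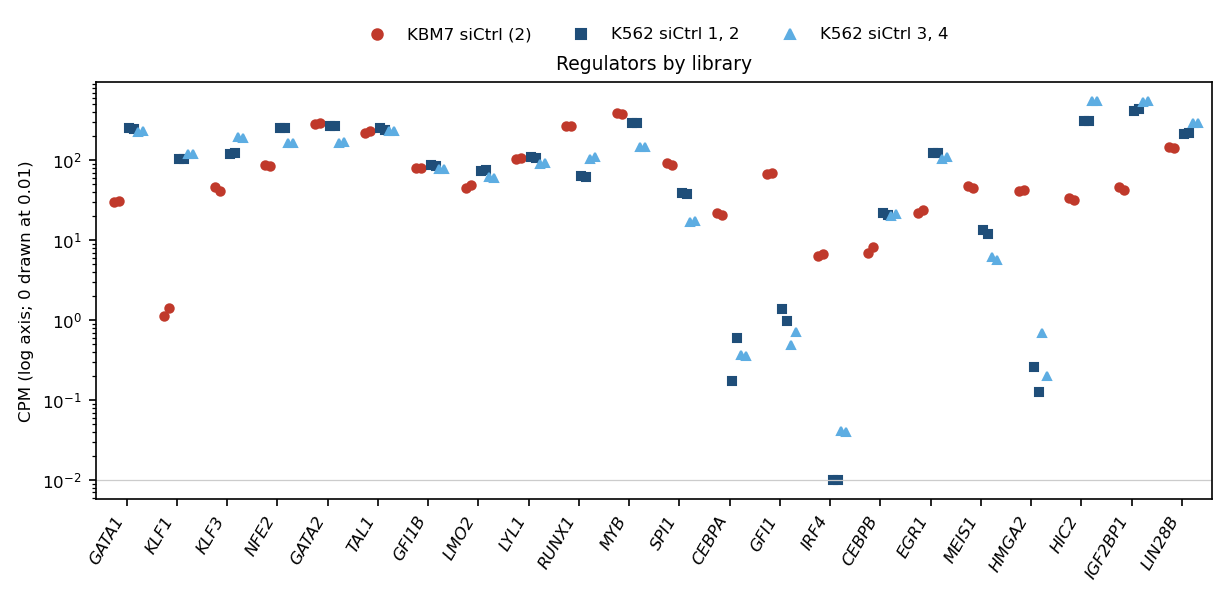
CPM of 22 transcription and RNA-binding regulators on a log axis, with a point for each library and 0 counts on the grey line. TAL1, GFI1B and LYL1 coincide in the lines, KLF1, HIC2 and IGF2BP1 lie higher in K562, and GFI1, CEBPA, IRF4 and HMGA2 lie higher in KBM7.

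Of 10 tested factors known to set which globin is made, 4 were higher in K562 (40%, beside 17.9% of all genes tested). Higher in KBM7 were 2 (20%, beside 23.6%). HIC2, which represses BCL11A, had 33.9 and 31.7 CPM in KBM7 and 309, 313, 547 and 545 CPM in K562 (-3.71 ± 0.34, adjusted p = 7.9e-05). The fetal RNA-binding protein IGF2BP1 had 46.0 and 42.4 CPM against 417 to 548 CPM (-3.46 ± 0.16), and IGF2BP3 was higher in K562 at -1.25. BCL11A, the repressor of fetal globin, was listed for KBM7 only, at 30.8 ± 1.23 CPM (SD, n = 2), and SOX6, its partner, for K562 only, at 20.3 ± 6.50 CPM (SD, n = 4). LIN28B, the fetal regulator of let-7, had 145 and 141 CPM in KBM7 and 217 to 293 CPM in K562 and was not called (-0.83). HMGA2, another target of let-7, had 41.3 and 42.1 CPM in KBM7 and 0.128 to 0.690 CPM in K562 (7.0 ± 0.37, adjusted p = 6.0e-06). MYB, which keeps progenitors dividing, was not called (0.81, adjusted p = 0.063): its level in KBM7, 386 and 385 CPM, lay above 293 and 297 CPM in the first K562 set and 146 and 146 CPM in the second.

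Stem and progenitor genes were higher in KBM7 for 11 of 17 tested (64.7%, beside 23.6% of all genes tested). They were higher in K562 for 2 (11.8%, beside 17.9%), and the median was 2.93. CD34, the surface marker of progenitors, had 429 and 405 CPM in KBM7 and 1 count over the 4 K562 libraries, a ratio of 40235 with an exact 95% interval of 7220.8 to 1589283 that covers counting error only. ERG, an ETS factor of stem and endothelial cells, had 137 and 143 CPM against 0.0397 to 0.0434 CPM (11.56 ± 0.11, adjusted p = 3.0e-08). KIT, the stem cell factor receptor, had 55.5 and 57.6 CPM against 13.1, 10.1, 2.92 and 3.70 CPM (2.93 ± 0.54), and PTPRC, the CD45 phosphatase, 431 and 423 CPM against 17.5 to 44.7 CPM (3.79). The K562 sets stood apart at both genes, and KBM7 lay above each set. MEIS1 (2.30), ETV6 (3.72) and NPR3 (11.01) were also higher in KBM7, and BAALC, FLT3 and THY1 were listed for KBM7 only, at 72.3, 3.55 and 3.44 CPM. MECOM, which encodes EVI1, was higher in K562 (-1.78), as was ALDH1A1 (-2.69). CD38 had 0 counts in KBM7 and 3 in K562.

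The gene with the largest difference in the comparison encodes a mast cell protease. TPSB2, a beta tryptase, had 771 and 782 CPM in KBM7 and 0 counts in all 4 K562 libraries, at least 24918-fold higher when K562 is taken at 3 counts over the group. TPSAB1, a near-identical tryptase gene that shares reads with it, was listed for KBM7 only at 248 ± 3.60 CPM (SD, n = 2), and so was CPA3, the mast cell carboxypeptidase, at 105 ± 3.14 CPM. Of 10 eosinophil, basophil and mast cell genes tested, 8 were higher in KBM7 (80%, beside 23.6% of all genes tested). Higher in K562 was 1 (10%, beside 17.9%). The median was 7.82, or 7.66 with genes of 3 counts or fewer in a line set at 3 counts. MS4A2, the beta chain of the high-affinity IgE receptor, had 76.6 and 88.4 CPM in KBM7 and 0.0406 to 0.130 CPM in K562 (9.87 ± 0.21, adjusted p = 1.7e-07). Its partner chain FCER1G was higher in KBM7 as well (6.52), whereas the ligand-binding chain FCER1A was not tested, with 16 counts in KBM7 and 11 in K562. HDC, which makes histamine, had 22.8 and 25.1 CPM against 0.0406 to 0.119 CPM (8.27 ± 0.23). HPGDS, a prostaglandin D2 synthase, had 18.2 and 19.6 CPM in KBM7 and 3 counts over the K562 libraries, a ratio of 604 with an exact 95% interval of 206.0 to 2932. CYSLTR2, a leukotriene receptor, had 9.04 and 10.3 CPM and 0 counts in K562, at least 310-fold higher. The gene higher in K562 was PTGDR2, a prostaglandin D2 receptor (-1.49), a call that was lost without KBM7 replicate 1 (-1.59) or 2 (-1.40) and against the second K562 set alone (-0.79). Eosinophil granule genes were low: EPX had 0.716 and 0.556 CPM in KBM7, RNASE2 2.11 CPM and RNASE3 0.520 CPM, and CLC 2 counts.

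GATA factors bind the letters GATA, searched here on either strand where an A or a T stood before them and an A or a G after them. In the RefSeq promoter set of GRCh38.p14, at least 1 of these hexamers lay in the 250 bases before the start of 22.3% of 35116 promoters, of 10 of the 24 red cell membrane genes with an entry (41.7%), of 9 of 19 megakaryocyte genes (47.4%) and of 10 of 15 eosinophil, basophil and mast cell genes (66.7%). It lay before 2 of 16 heme and iron genes (12.5%) and 10 of 30 interferon-response genes (33.3%). A match is a description of the letters only. The windows of 60 bases below, written 5′ to 3′ on the strand of the gene with the hexamer in capitals, are shown because they place the same letters before genes high in K562 (KLF1, RHAG, EPOR and GYPB) and genes high in KBM7 (MS4A2, HPGDS, CYSLTR2 and CPA3).
KLF1 (chr19:12887202-12887261, minus strand): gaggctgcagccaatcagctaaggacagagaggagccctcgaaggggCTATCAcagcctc
RHAG (chr6:49636840-49636899, minus strand): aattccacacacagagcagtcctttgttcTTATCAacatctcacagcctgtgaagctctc
EPOR (chr19:11384360-11384419, minus strand): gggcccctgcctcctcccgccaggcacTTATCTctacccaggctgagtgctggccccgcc
GYPB (chr4:144019390-144019449, minus strand): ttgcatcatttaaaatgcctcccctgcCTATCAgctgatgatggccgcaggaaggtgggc
MS4A2 (chr11:60088583-60088642, plus strand): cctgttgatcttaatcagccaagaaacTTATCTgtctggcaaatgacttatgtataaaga
HPGDS (chr4:94342849-94342908, minus strand): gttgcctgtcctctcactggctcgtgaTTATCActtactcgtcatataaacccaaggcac
CYSLTR2 (chr13:48653680-48653739, plus strand): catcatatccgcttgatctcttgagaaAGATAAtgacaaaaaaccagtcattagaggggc
CPA3 (chr3:148865224-148865283, plus strand): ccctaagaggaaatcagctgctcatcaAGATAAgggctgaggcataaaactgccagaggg

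Some granule genes of neutrophils were present in KBM7 and others were near 0 in both lines. Of 12 tested, 6 were higher in KBM7 (50%, beside 23.6% of all genes tested) and 1 in K562 (8.3%, beside 17.9%). The median was 2.24. PRSS57, a serine protease of azurophil granules, had 92.9 and 95.1 CPM in KBM7 and 0.318 to 0.427 CPM in K562 (7.95 ± 0.11, adjusted p = 6.1e-08), CST7 18.5 and 19.6 CPM, and PRTN3, proteinase 3, 6.12 and 6.60 CPM against 0.0397 to 0.608 CPM (4.27 ± 0.59). MMP9, the gelatinase of neutrophil granules, had 8.07 and 8.62 CPM in KBM7 and 1 count in K562, and LTF, lactoferrin, 1.27 and 1.07 CPM and 2 counts. Lower still, ELANE and CTSG were listed for KBM7 only, with 4 and 5 counts, CAMP had 0 counts, S100A9 had 1 count and LCN2 had 3 in KBM7 and 16 in K562. LYZ, lysozyme, overlapped between the lines (-0.90, adjusted p = 0.15), though it was called without K562 replicate 3 (-1.12). SRGN, the proteoglycan that packs granules, was the gene higher in K562 (-1.13), at -0.91 and not called against the second K562 set alone and at -0.64 in the siUSP15 libraries.

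The transcription factors of the myeloid lineage were higher in KBM7 for 9 of 17 tested (52.9%, beside 23.6% of all genes tested). They were higher in K562 for 3 (17.6%, beside 17.9%, so no more than among all genes), and the median was 1.37. CEBPA had 21.9 and 20.5 CPM in KBM7 and 0.174, 0.598, 0.365 and 0.358 CPM in K562 (5.81 ± 0.28, adjusted p = 4.1e-06). GFI1, a repressor that favors granulocytes, had 68.4 and 68.8 CPM against 0.487 to 1.39 CPM (6.27 ± 0.27, adjusted p = 2.4e-06). SPI1 had 91.5 and 88.4 CPM against 38.5, 38.4, 16.9 and 17.4 CPM (1.70 ± 0.37, adjusted p = 0.0051), so that PU.1 RNA was not absent from K562. IRF4 was higher in KBM7 too, with 6.28 and 6.75 CPM against 2 counts in K562, and RUNX3 was listed for KBM7 only, at 100.0 ± 0.994 CPM (SD, n = 2). Higher in K562 were the immediate-early gene EGR1 (22.1 and 24.2 CPM against 103 to 125 CPM, -2.33), BCL6 (-2.30) and CEBPB (-1.47). IRF8 had 1 count in each line.

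Receptors and phagocyte genes gave the same direction, with 19 of 27 tested higher in KBM7 (70.4%, beside 23.6% of all genes tested). Higher in K562 was 1 (3.7%, beside 17.9%), and the median was 3.71. The leukocyte integrin LFA-1 was among the clearest: its chain ITGAL had 411 and 403 CPM in KBM7 and 0 to 0.214 CPM in K562 (12.01 ± 0.26, adjusted p = 1.7e-07), and the shared chain ITGB2 had 53.2 and 54.0 CPM against 0 to 0.0811 CPM (10.17 ± 0.26). NCF4, a subunit of the phagocyte oxidase, had 148 and 160 CPM against 0.0406 to 0.217 CPM (10.34). ANPEP, the myeloid antigen CD13, had 211 and 217 CPM against 2.07 to 3.55 CPM (6.27), CD33 87.9 and 92.1 CPM against 13.0 to 17.4 CPM (2.56), and CSF2RB, the shared beta chain of the IL-3, IL-5 and GM-CSF receptors, 29.7 and 27.7 CPM against 0.527 to 0.715 CPM (5.59). LAPTM5 and CORO1A, general leukocyte genes, were higher in KBM7 (5.02 and 4.39) and differed between the K562 sets by more than the replicates of a set. Of genes known from monocytes and macrophages, AIF1 had 27.9 and 25.2 CPM in KBM7 and 4.77, 4.83, 1.14 and 1.15 CPM in K562 (3.17 ± 0.58), and LST1 13.6 and 12.8 CPM against 0.0795 to 0.427 CPM (5.58). CD14 had 0.195 and 0.159 CPM in KBM7 and was not called, and CD68 was not tested, with 5 and 9 counts. CSF3R, the G-CSF receptor, was higher in K562 at a low level (-1.91, adjusted p = 0.039), a call that was lost without KBM7 replicate 1 (-1.46) or 2 (-2.44), and the gene did not pass the filter on low counts without K562 replicate 1 or 2.

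Megakaryocyte and platelet genes went both ways, with 8 of 16 tested higher in KBM7 (50%, beside 23.6% of all genes tested). Higher in K562 were 5 (31.3%, beside 17.9%), and the median was 1.36. ITGA2B, the alpha IIb integrin, had 57.7 and 67.0 CPM in KBM7 and 8.46, 8.33, 1.70 and 2.23 CPM in K562 (3.59 ± 0.60, adjusted p = 0.0015), whereas its partner ITGB3 was not called (0.86, adjusted p = 0.12). PLEK, pleckstrin, had 32.5 and 32.6 CPM against 0.0811 to 0.199 CPM (7.97). GP6, the collagen receptor of platelets, had 0.846 and 1.23 CPM in KBM7 and 38.3, 36.0, 13.5 and 16.1 CPM in K562 (-4.65 ± 0.64), and TUBB1, the platelet tubulin, 0.488 and 0.437 CPM against 10.3 to 13.2 CPM (-4.72). PPBP had 1 count, GP1BA had 17 and 1 counts, and PF4 was listed for neither line.

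Genes of other cell types were checked with 2 further lists, and neither line was without them. Of 17 lymphoid genes tested, 10 were higher in KBM7 (58.8%, beside 23.6% of all genes tested) and 3 in K562 (17.6%, beside 17.9%). PAX5, the B-cell factor, had 72.0 and 66.4 CPM in KBM7 and 2 counts over K562, a ratio of 3341 with an exact 95% interval of 924.4 to 27601. The other B-cell genes were low in KBM7: CD79A had 6.73 and 7.07 CPM and EBF1 3.09 and 4.29 CPM. LEF1, a factor of the WNT pathway and of early lymphocytes, had 0.195 and 0.0795 CPM in KBM7 and 52.8 to 66.2 CPM in K562 (-8.65 ± 0.26). Among T-cell genes, CD2, CD5, CD7 and LCK had 9 counts or fewer in each line. The summed level of the lymphoid genes tested was 396 to 399 CPM in KBM7 and 113 to 196 CPM in K562. In KBM7 most of it was IL2RG, at 235 and 242 CPM, against 22.5, 19.8, 7.71 and 7.71 CPM in K562.

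Of 17 stromal, endothelial and epithelial genes tested, 8 were higher in each line (47.1%, beside 23.6% in KBM7 and 17.9% in K562 among all genes tested). All 5 endothelial genes tested (PECAM1, CDH5, KDR, TIE1 and TEK) were higher in KBM7. KDR, a VEGF receptor, had 29.3 and 31 CPM in KBM7 and 0 counts in K562, at least 967-fold higher, CDH5 7.48 and 6.0 CPM against 0 counts, at least 216-fold higher, and TIE1 50.7 and 56.0 CPM against 0.397 to 0.598 CPM (6.75 ± 0.15). Matrix genes went both ways: COL6A1 (7.33), COL6A2 (6.97) and SPARC (4.66) were higher in KBM7, and FN1 (-6.74) and COL1A2 (-7.26) higher in K562. The 5 epithelial genes tested were higher in K562. KRT19 had 1 count in KBM7 and 108 to 125 CPM in K562, EPCAM had 3 counts and 96.1 to 98.0 CPM, and KRT8 had 11.4 and 11.5 CPM against 386 to 602 CPM (-5.41 ± 0.29). The mesenchymal filament vimentin (VIM) was abundant in both, 201 and 187 CPM in KBM7 and 457 to 719 CPM in K562 (-1.6). The summed level over the list was 565 CPM in both KBM7 libraries and 1369 to 1961 CPM in K562. The part of other cells in any difference was not tested.

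**Figure D3:**
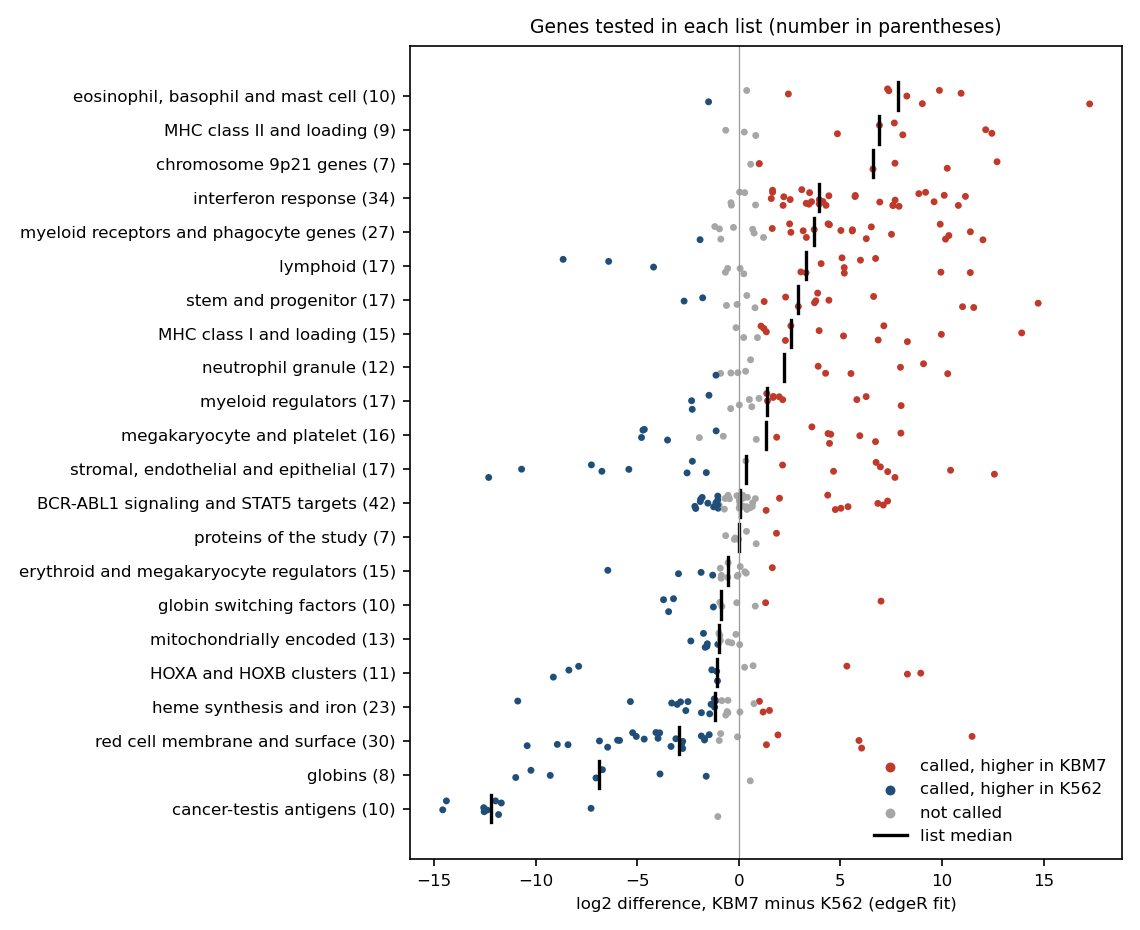
Log2 differences, KBM7 minus K562, of the genes tested in 22 lists, 1 point a gene (red, called higher in KBM7; blue, called higher in K562; grey, not called), with black lines at the list medians. The medians run from -12.18 for cancer-testis antigens to 7.82 for eosinophil, basophil and mast cell genes, and lists such as HOXA and HOXB clusters or stromal, endothelial and epithelial genes hold genes on both sides.

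HLA-B and HLA-C, classical class I genes whose products present peptides to T cells, were near 0 in K562. HLA-B had 343 and 335 CPM in KBM7 and 0.738, 0.470, 0.122 and 0.0397 CPM in K562 (9.97 ± 0.39, adjusted p = 1.5e-06), and HLA-C 77.1 and 76.8 CPM against 0.238 to 0.940 CPM (7.14). Class I genes are alike in sequence and vary between people, and reads may be lost or shared among them. Of 15 class I and loading genes tested, 12 were higher in KBM7 and none in K562 (median 2.56). B2M, the light chain of class I, was present in both lines, 721 and 703 CPM in KBM7 and 271 to 333 CPM in K562 (1.23 ± 0.10), and so was HLA-E (2.56). NLRC5, the transactivator of class I genes, had 32.2 and 29.7 CPM in KBM7 and 0.0406 to 0.174 CPM in K562 (8.30 ± 0.25), the peptide pump TAP1 74.7 and 69.9 CPM against 2.98 to 6.99 CPM (3.95), and PSMB8, an immunoproteasome subunit, 69.2 and 60.7 CPM against 0 to 1.17 CPM (6.86). TAP2, the partner chain of the pump, was not called (-0.14, adjusted p = 0.12).

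Class II genes gave the same picture, with 6 of 9 tested higher in KBM7, none higher in K562, and 6 more listed for KBM7 only. Of those listed for KBM7 only, HLA-DOA had 10 counts and HLA-DQA1 had 4. The median of 6.92 became 4.99 with genes of 3 counts or fewer in a line set at 3 counts. CIITA, the transactivator, had 87.0 and 84.6 CPM in KBM7 and 1 count over K562, a ratio of 8272 with an exact 95% interval of 1483.9 to 326791. The invariant chain CD74 had 452 and 441 CPM against 0.0795 to 0.122 CPM (12.15 ± 0.10, adjusted p = 2.7e-08), and HLA-DRA was listed for KBM7 only at 170 ± 15.2 CPM (SD, n = 2). The 3 genes not called, RFX5 (0.83), RFXAP (0.27) and RFXANK (-0.65), encode the promoter-bound complex that CIITA joins.

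Interferon-response genes were higher in KBM7 almost throughout. Of 40 listed, 34 were tested, 29 were higher in KBM7 and none in K562, at a median log2 difference of 3.96, and OAS1, OAS2, OASL, IFI44, IFI44L and HERC5 were listed for KBM7 only. IFIT1, which binds viral RNA, had 213 and 188 CPM in KBM7 and 0.217, 0.214, 0.0811 and 0.199 CPM in K562 (10.11 ± 0.17, adjusted p = 7.8e-08). IFIT2 had 179 and 175 CPM against 0 to 0.260 CPM (11.15), IFIT3 222 and 210 CPM against 0.933 to 1.39 CPM (7.59), and IFI6 170 and 158 CPM against 0.676 to 2.13 CPM (6.94). ISG15, a ubiquitin-like modifier, had 143 and 126 CPM against 6.11 to 6.55 CPM (4.43 ± 0.08). All these libraries were from cells transfected with siRNA. A response of KBM7 to the transfection cannot be told apart from a property of the line, and it was not tested. The same limit holds for the class I and class II genes.

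The sensors, factors and receptors differed less evenly. IFIH1, the sensor MDA5, had 94.4 and 91.5 CPM in KBM7 and 0.284 to 0.897 CPM in K562 (7.59), and DDX58, the sensor RIG-I, 109 and 98.2 CPM against 1.35 to 2.69 CPM (5.73). IRF1 (2.18) and IRF7 (3.96) were higher in KBM7. STAT2 overlapped between the lines (0.04, adjusted p = 0.90), and the receptor chains IFNAR1 (-0.37) and IFNAR2 (0.82) were not called. MX1 was low even in KBM7, at 1.20 and 1.11 CPM against 0 counts, while MX2 had 13.2 and 10.3 CPM against 0.0397 to 0.0868 CPM. IFNB1, the gene of interferon beta on 9p21, was listed for KBM7 only, at 2.28 ± 0.423 CPM (SD, n = 2).

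The interferon-stimulated response element, to which complexes of STAT2 and IRF9 bind, is GAAA, then any 2 bases, then GAAA, on either strand. It lay in the 250 bases before the start of 3.02% of 35116 RefSeq promoters of GRCh38.p14, of 15 of the 30 interferon-response genes with an entry (50%) and of 6 of 13 class I genes (46.2%). The windows of 60 bases below belong to genes of this list that were high in KBM7, and matches are in capitals, several windows holding 2. As above, a match says nothing of binding.
IFIT1 (chr10:89392495-89392554, plus strand): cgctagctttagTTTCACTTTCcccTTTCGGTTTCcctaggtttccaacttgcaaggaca
IFIT3 (chr10:89327850-89327909, plus strand): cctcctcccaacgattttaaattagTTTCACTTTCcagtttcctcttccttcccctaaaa
IFIT5 (chr10:89414508-89414567, plus strand): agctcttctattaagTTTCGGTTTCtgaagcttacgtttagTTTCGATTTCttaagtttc
IFI6 (chr1:27672251-27672310, minus strand): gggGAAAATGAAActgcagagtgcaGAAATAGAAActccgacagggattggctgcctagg
OAS3 (chr12:112938414-112938473, plus strand): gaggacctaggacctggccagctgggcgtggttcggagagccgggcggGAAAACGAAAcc
HERC5 (chr4:88457020-88457079, plus strand): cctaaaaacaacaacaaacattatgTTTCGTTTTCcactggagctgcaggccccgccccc
IFI44 (chr1:78649729-78649788, plus strand): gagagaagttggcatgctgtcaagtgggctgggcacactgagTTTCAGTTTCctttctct

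Of 42 genes of BCR-ABL1 signaling and STAT5 targets, 9 were higher in KBM7 (21.4%, beside 23.6% of all genes tested) and 12 higher in K562 (28.6%, beside 17.9%), with a median of 0.03. With RLE size factors 7 were higher in K562, and with DESeq2, without KBM7 replicate 2 or against the second K562 set alone 8 were. The fusion partners were both higher in K562, ABL1 as above and BCR with 82.8 and 85.1 CPM in KBM7 and 193 to 207 CPM in K562 (-1.24 ± 0.06, adjusted p = 4.4e-06). Counts per gene do not separate the fusion transcript from the normal ones. Of the adaptors, CRKL had 183 and 184 CPM in KBM7 and 721 to 930 CPM in K562 (-2.17 ± 0.14), while GRB2 (0.04) and CRK (0.21) were not called and SOS1 was higher in KBM7 (2.00). STAT5A had 160 and 154 CPM in KBM7 and 577 to 592 CPM in K562 (-1.90 ± 0.06, adjusted p = 6.5e-07), and STAT5B (-1.04) and JAK2 (-1.53) were also higher in K562. STAT5B fell short of the size in 6 of 16 alternative fits, with RLE (-0.99), with DESeq2 (-0.99), without K562 replicate 1 (-0.96) or 2 (-0.95), against the second set alone (-0.72) and in the siUSP15 libraries (-0.95). Of the targets of STAT5, CISH (0.40), PIM1 (-1.10, adjusted p = 0.12), SOCS2 (0.68) and BCL2L1 (-0.53) were not called, and CISH, PIM1 and SOCS3 differed between the K562 sets. PIM1 was called without K562 replicate 3 (-1.33).

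Among the 9 genes higher in KBM7 were 3 phosphatases that dampen signaling. INPP5D, the SHIP1 phosphatase, had 247 and 242 CPM in KBM7 and 1.07 to 3.60 CPM in K562 (6.84 ± 0.40), PTPN6, the SHP-1 phosphatase, 132 and 131 CPM against 2.76 to 5.82 CPM (5.02), and DUSP6, a phosphatase of MAP kinases, 31.9 and 36.2 CPM against 0.159 to 0.256 CPM (7.32 ± 0.16). The survival gene BCL2 had 52.1 and 48.6 CPM in KBM7 and 0.868 to 1.55 CPM in K562 (5.37 ± 0.22, adjusted p = 1.8e-06), whereas MCL1 was not called (-0.97). LYN, a SRC-family kinase, was higher in KBM7 (1.34), and cyclins D2 (CCND2, -2.12) and D3 (CCND3, -1.04) were higher in K562. CCND3 fell just short of the size with RLE (-0.995), with DESeq2 (-0.995) and without KBM7 replicate 2 (-0.999), and was at -0.88 against the second K562 set alone and -0.81 in the siUSP15 libraries.

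Of 11 HOXA and HOXB genes tested, 3 were higher in KBM7 (27.3%, beside 23.6% of all genes tested). Higher in K562 were 6 (54.5%, beside 17.9%), and the median was -1.05. HOXA9, a gene of myeloid leukemia, was listed for KBM7 only at 39.6 ± 0.0116 CPM (SD, n = 2), as were HOXA7 at 15.4 and HOXA10 at 12.8 CPM and 5 other HOXA genes. Of these 5, HOXA2 had 12 counts and HOXA4 had 8. HOXB9, by contrast, had 0.358 and 0.397 CPM in KBM7 and 201 to 230 CPM in K562 (-9.13 ± 0.14, adjusted p = 6.6e-08), and HOXB7 and HOXB8 had 2 counts each in KBM7. HOXB2, HOXB3 and HOXB4, toward the other end of the cluster, were closer, at -1.09, -1.05 and -1.33. HOXB2 was not called against the second K562 set alone (-0.82), nor was HOXB3 against that set (-0.74), without K562 replicate 1 (-0.96) or 2 (-0.99) and in the siUSP15 libraries (-0.87). HOXB5 and HOXB6 overlapped between the lines.

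Genes of 9p21, a band that K562 is known to lack in part, were mostly listed for KBM7 only or near 0 in K562: 9 of 18 were listed for KBM7 only, and of 7 tested 5 were higher in KBM7 (median 6.60). Some of the genes listed for KBM7 only were near 0 there too: IFNE had 0 counts in its siCtrl libraries, IFNA2 3 and ELAVL2 5. CDKN2A, the gene of p16 and ARF, had 66.5 ± 2.31 CPM (SD, n = 2) in KBM7, CDKN2B 29.6 CPM and KLHL9 48.1 CPM, and none was listed for K562. MTAP, next to CDKN2A, had 103 and 102 CPM in KBM7 and 1 count over the K562 libraries, a ratio of 9863 with an exact 95% interval of 1769.4 to 389620. MLLT3 (10.26), FOCAD (6.60) and TEK (7.68) were higher in KBM7 as well, and so was PLAA (1.01). IFT74 (0.58) and CAAP1 (0.99) were not called. PLAA fell short of the size without KBM7 replicate 1 (0.99) or K562 replicate 1 (0.95) or 2 (0.95), against the second K562 set alone (0.90) and with K562 libraries summed by set (0.96). CAAP1 passed it without KBM7 replicate 1 (1.01) or K562 replicate 1 (1.01), against the second set alone, with RLE (1.04) and with DESeq2 (1.04). These 3 genes had RNA in every K562 library. FOCAD had 0.914 to 1.17 CPM in K562.

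Cancer-testis antigens, germline genes seen in many tumors, lay higher in K562. Of 10 tested, 9 were higher in K562 and none in KBM7 (median -12.18, or -10.85 with genes of 3 counts or fewer in a line set at 3 counts), 12 more were listed for K562 only and 1, HORMAD1 with 6 counts, for KBM7 only. Some of those listed for K562 only were low as well: SYCP1 had 1 count, CT45A1 11, MAGEA4 18, DDX43 20 and LUZP4 30. PRAME had 15.2 and 16.3 CPM in KBM7 and 2312 to 2534 CPM in K562 (-7.27 ± 0.11, adjusted p = 6.6e-08). CTCFL, the testis paralog of CTCF, had 3 counts in KBM7 and 316 to 388 CPM in K562, and MAGEA12 0 counts and 97.4 to 116 CPM, at least 1978-fold higher. The GAGE genes, MAGEA3 and MAGEA6 are near-identical within their families and their split is uncertain.

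PRAME, HIC2 and CRKL lie near one another on chromosome 22, next to BCR, and a look at their neighbors, taken after these values were seen, showed that the difference was shared. Of the 30 genes up to and including BCR whose mean level reached 3 log2 CPM (TXNRD2 to BCR, hg38 chr22:19875517-23318037), 29 were lower in KBM7 and 27 were called higher in K562, with a median of -1.88. Among them were TOP3B, a topoisomerase (-2.44), and PPIL2 (-2.90), and the exception was KLHL22 (0.46). The counts of 29 and 27 include PRAME, HIC2, CRKL and BCR, whose values led to this look. They describe the stretch and are no test of it. Of the 30 such genes after BCR (ZNF70 to NIPSNAP1), 8 were lower in KBM7 and 4 called higher in K562, with a median of 0.28. BCR is the gene in which the fusion joins chromosome 22 to chromosome 9. Of all runs of 15 neighboring autosomal genes, CRKL to PRAME had the lowest median (-2.86, all 15 called). This run holds CRKL, HIC2 and PRAME themselves.

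**Figure D4:**
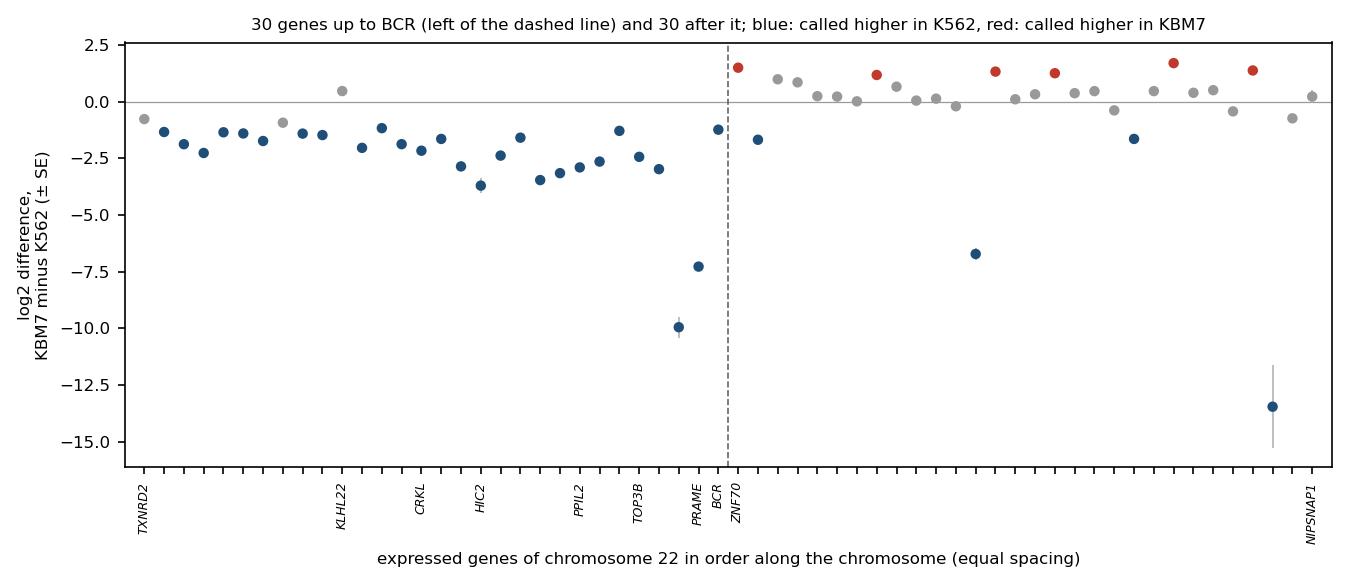
Log2 differences, KBM7 minus K562, with SE, of 60 expressed genes of chromosome 22 in order along the chromosome at equal spacing, 30 up to BCR and 30 after it, with names at genes of the text. Left of the dashed line 29 of 30 genes lie below 0, and to its right 22 of 30 lie above 0.

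The medians of whole chromosomes differed less. The highest was 0.87 on chromosome 8, where 80.3% of 542 genes lay above 0 and 234 were called higher in KBM7, followed by 0.57 on chromosome 13, 0.46 on 15 and 0.39 on 14. The lowest were -0.54 on chromosome 7, -0.41 on 6 and -0.36 on 1 and 21. KBM7 is known as near-haploid except for chromosome 8 and a part of chromosome 15, while K562 is near-triploid with many rearrangements, and scaling by library removes any change common to all chromosomes. The runs of 15 neighbors with the highest medians lay on chromosome 13 (LRCH1 to RCBTB1, chr13:46553168-49585583, 1.91), which holds CYSLTR2, and on chromosome 15 (NEO1 to SCAMP2, chr15:73051710-74873365, 1.72). Copy number was not measured here, and its part in these medians was not tested.

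**Figure D5:**
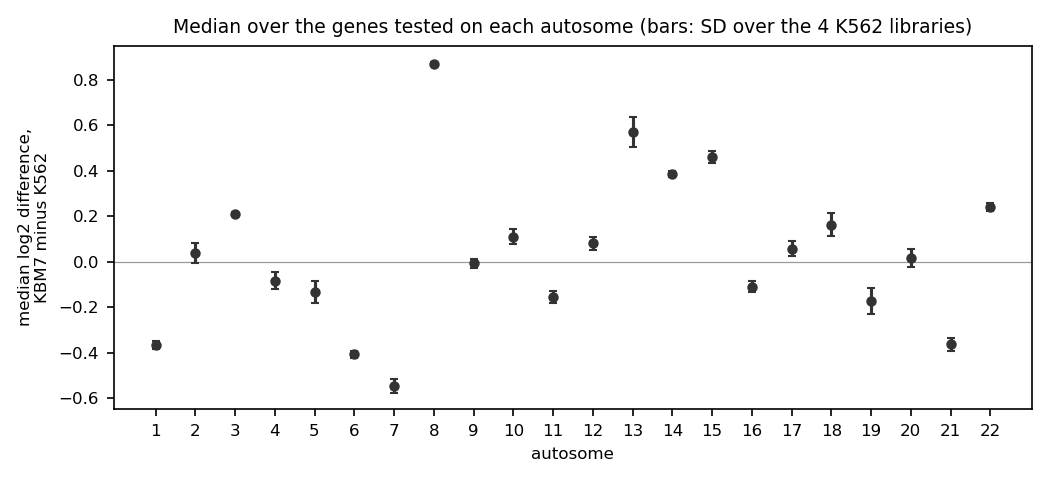
Median log2 difference, KBM7 minus K562, over the genes tested on each autosome, with bars for the SD over the 4 K562 libraries. Chromosome 8 stands highest at 0.87 and chromosome 7 lowest at -0.54.

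Of 13 mitochondrially encoded genes, 6 were called higher in K562, 7 were not called and none was higher in KBM7, with a median of -0.98. The share of all counts held by all joined genes of the mitochondrial chromosome, a wider set, was 2.06% and 2.67% in KBM7, 4.83% and 4.98% in the first K562 set and 3.2% and 3.26% in the second. MT-ND4 was higher in K562 (-1.57), while MT-ND1 (-0.14) and MT-ND5 (0.04) overlapped between the lines.

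Of 7 genes of proteins central to the study, 1 was called, higher in KBM7 (14.3%, beside 23.6% of all genes tested). USP15 (hg38 chr12:62260338-62417431) had 198 and 203 CPM in KBM7 and 276, 282, 357 and 342 CPM in K562, a log2 difference of -0.65 ± 0.12 that passed the adjusted p (0.0030) but not the size. Of the related proteases, USP4 was not called (0.38) and USP11 was higher in KBM7, with 147 and 144 CPM against 38 to 41.9 CPM (1.85 ± 0.06, adjusted p = 7.9e-07).

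Beyond the lists, the 12 largest differences in each direction, among called genes with a mean level from 4 log2 CPM up whose libraries did not overlap, were mostly genes at 0 counts in one line. Among those higher in KBM7, beside TPSB2 and CD34, were VCAN, the matrix proteoglycan versican, with 377 and 355 CPM and 1 count in K562, and with 0 counts in K562 PNMA2, SLA, LSAMP, IGFBP2, GNAI1, KBTBD11 and FZD6, each at least 1820-fold higher. SLA encodes a brake on antigen receptor signaling, IGFBP2 binds insulin-like growth factors and FZD6 is a WNT receptor. Higher in K562 beside GAGE1, MAGEA12, CTCFL and MAGEB2 were further germline genes at 0 counts in KBM7, namely MEIOB of meiotic recombination at 93.8 to 104 CPM, PRSS21, the testis protease, at 61.0 to 66.6 CPM, and SAGE1. NEFH, a neurofilament, DHRS3, a retinal reductase, CSMD1, CCDC8 and the noncoding RP11-169F17.1 were at 0 counts in KBM7 too, each at least 619-fold higher in K562, and NEFH and DHRS3 differed between the K562 sets.

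The siUSP15 libraries of the same lines, which entered only alternative fits, gave a second set of libraries for these differences, though with USP15 depleted and from the same runs. Of the 6369 genes called with siCtrl, 6229 were tested there. Of these, 5549 were called in the same direction and 0 in the opposite one. Among all 15528 genes tested with siUSP15, 6469 were called. The genes compared were picked by their call in the same lines and runs, so that this is no independent check. All 4 markers were called again, and the log2 differences were larger in size for HBG2 (-9.24), GATA1 (-3.79), MPO (7.70) and KLF1 (-9.32). With siUSP15, HBG2 had 1.68 and 3.27 CPM, GATA1 17.7 and 18.0 CPM, and MPO 15 and 18.9 CPM in the KBM7 libraries. Whether these differ from the siCtrl differences was not tested.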

How the data were processed

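The deposited tables, 1 for each line, hold raw counts per gene, which the authors made by aligning the reads to hg38 and counting them per gene; the submitters' processing notes name TopHat2 2.1.0, HTSeq, edgeR and limma. Both tables list only genes with at least 1 count over their libraries. They also hold log2 CPM and results of the authors' own comparison of the siRNAs within a line (fold changes, adjusted p-values), which were not used.

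The 6 siCtrl libraries were joined by Ensembl identifier. Genes of low count were removed by filterByExpr, libraries were scaled by TMM, and a quasi-likelihood model was fitted in edgeR 4.0.16 (R 4.3.3), with Benjamini-Hochberg adjustment over the 15375 genes tested. The scripts were tested on simulated data. The genes, lists and tests were chosen with earlier results of these data known. Genes were named as members of the lists, as the 12 largest differences in each direction, or, where said, after their values were seen; some of these genes are not reported here. A gene with 0 counts in a line was set at 3 counts over the group for its lowest fold, and for 1 to 3 counts the ratio was given with an exact 95% interval. Intervals and floors cover counting error only. For MPO, HBG2, GATA1 and ABL1 an exact permutation test over libraries used log2(CPM + 1). Promoter sequences were from RefSeq (GRCh38.p14). Total counts of 23020401 to 29441118 per library set the depth. Alternatives were RLE size factors, no filter, DESeq2 1.42.0, limma-voom (limma 3.58.1), other thresholds, each library left out, each K562 set alone, a replicate block, all 12 libraries and the siUSP15 libraries. Chosen after seeing the data were genes of 1 table counted as 0 in the other and K562 libraries summed by set.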

Additional observations from a re-analysis of the deposited data

Results flagged for a closer look

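Among the 4 K562 libraries, 1 library stood apart from the other 3 by Dixon's criterion at 13 of the 205 named genes screened, and chance alone marks about 1 group in 20 where values are continuous. TUBB1 had 10.3 CPM in replicate 1 against 12.8 to 13.2 CPM in the others, and ISG15 6.55 CPM in replicate 1 against 6.11 to 6.17 CPM. IFIT1 had 0.0811 CPM in replicate 3 against 0.199 to 0.217 CPM, IFIT2 0.260 CPM in replicate 1 against 0 to 0.0406 CPM, and MX2 0.0868 CPM in replicate 1 against 0.0397 to 0.0427 CPM. At the other 8 genes the K562 libraries held 1 or 2 counts in all, in 1 library, so that the criterion is met by construction and that rate does not apply: CD34, CST7, TEK and VCAN with 0.0427 CPM in replicate 2, CIITA and MTAP with 0.0397 CPM in replicate 4, and in replicate 1 PAX5 with 0.0868 CPM and MMP9 with 0.0434 CPM.

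Genes listed for 1 line only entered no test. The protein-coding ones with the most RNA in KBM7 were TPSAB1 at 248 CPM, CYP1B1 at 243 CPM, HLA-DRA at 170 CPM, HERC5 at 149 CPM, FLI1 at 142 CPM and CHRDL1 at 121 CPM. In K562 they were MAGEC1 at 65.0 CPM, MAGEB1 at 54.3 CPM, ZBED9 at 46.7 CPM, MAGEC2 at 44.3 CPM, TBX18 at 41.1 CPM and SLC30A10 at 30.4 CPM.

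At 4 of the genes named, all KBM7 libraries lay on one side of all K562 libraries with siCtrl and on the other side with siUSP15. The log2 difference of HBD was 0.56 with siCtrl and -1.22 with siUSP15, that of CSF3R -1.91 and 0.95, that of GATA2 0.39 and -0.40, and that of TAP2 -0.14 and 0.10. The change between siRNAs was not tested.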

How the results depend on the processing

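With the adjusted p alone, 10948 genes were called (5580 higher in KBM7, 5368 in K562), and with a log2 difference of at least 2, 3721 (2366 and 1355), by construction. With a mean level of at least 1 log2 CPM, 4350 were called, 2362 higher in KBM7 and 1988 in K562, out of 12122 tested. Without one library at a time the counts ran from 5893 to 6375 (3413 to 3658 higher in KBM7, 2480 to 2739 in K562). The other settings gave 6203 to 7165 genes. Of the log2 differences of single genes under alternatives, 3391 kept direction and side of the threshold, 28 passed it newly, 43 no longer passed it and 2 turned with the siUSP15 libraries, HBD (-1.22) and CSF3R (0.95). The cause was not tested. Of the medians of chromosomes under alternatives, 78 moved by more than the SD over the K562 libraries and 37 by less: chromosome 8 ran from 0.77 to 0.96 and chromosome 7 from -0.59 to -0.48, while chromosomes 2, 9 and 17, near 0, changed sign in 1, 4 and 1 of 5 alternatives. Of the counts of members called per list, 508 stayed within 1.5 times and 20 did not. KBM7 and K562 replicates share only a number: the correlations of their deviations were -0.035 and 0.020. With the replicate block 6502 genes were called, 3636 higher in KBM7 and 2866 in K562. Calls that depended on a single library were found at genes of few counts, such as CSF3R and PTGDR2, and at well-expressed genes with a difference near the minimum size, among them ABL1, ALAS1, STAT5B, CCND3 and HOXB3.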

Other observations

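The polyubiquitin gene UBB, looked at after its values were seen, had 0.0976 and 0.238 CPM in KBM7 and 545, 548, 647 and 660 CPM in K562 (log2 difference -11.82). UBBP4, a copy that shares its reads, had 0 and 0.119 CPM in KBM7 and 147 to 160 CPM in K562. The ubiquitin-ribosomal fusion gene RPS27A (-0.74) was not called.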
